A study of Homo sapiens with 12 samples.

Results

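The comparison is of HepG2 cells exposed to A-485 with HepG2 cells exposed to the solvent DMSO alone. It uses 6 of the 12 RNA libraries of the series, 3 labelled DMSO and 3 labelled A-485, chosen by their labels. All 13511 gene identifiers of the count table were taken and 13508 were tested. HepG2 is a human hepatoma line that keeps many hepatocyte functions and grows in culture as 1 established line, here wild type, so its values describe that line and not liver tissue. In the DMSO group the cells received the solvent for 1 h and for a further 24 h. In the A-485 group they received 5 µM A-485 for the same times. Both groups were grown without doxycycline and without other antibiotics. The other 2 groups of the series received 30 µg/ml doxycycline (Dox) for the 24 h, with DMSO or with A-485, and enter only the last comparison. Nothing in the labels ties the 3 libraries of a group to independent cultures, and each p-value therefore rests on a spread between libraries that could be technical alone.

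A-485 is a small molecule that occupies the acetyl-CoA site of the histone acetyltransferases CBP and p300, encoded by CREBBP and EP300, and blocks their catalytic activity. CBP and p300 are paralogous coactivators. Transcription factors recruit them to enhancers and promoters, where they acetylate histones, most prominently on the tail of histone H3, and other nuclear proteins. In liver cells they are known as partners of the factors that keep hepatocyte genes active, among them HNF4A, the C/EBP proteins and nuclear receptors. They also serve many signalling pathways.

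The libraries held 46600324 to 51773300 counts on genes in the DMSO group and 49516772 to 51295138 in the A-485 group, with 1269 counts on average for the median gene. Levels are given as CPM, counts brought to a common library size and scaled by edgeR's trimmed mean of M-values (TMM), and a level is compared only with the same gene in other libraries, since CPM is not corrected for length. Differences are log2 fold changes of A-485 over DMSO with their standard error. A gene is said to have risen or fallen only where edgeR's quasi-likelihood test against a change of at most 2-fold gave an adjusted p under 0.05. A gene called higher or lower passed the plain test of any change at the same threshold.

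The response covered most of the transcriptome. Of 13508 genes, 1009 rose (7.47%) and 1905 fell (14.1%), and the plain test called 6153 higher (45.6%) and 5976 lower (44.2%), 89.8% in all. The falls were also the deeper changes in number, with 748 genes more than 4-fold lower against 272 more than 4-fold higher, and 105 more than 32-fold lower against 9 more than 32-fold higher. The 3 libraries of one group did not overlap with those of the other for 12122 genes (89.7%), and that holds for every gene said below to have risen or fallen. Replicates lay close together, with a biological coefficient of variation of 1.67%. TMM places the median of all genes at 0.03 on the log2 scale. Scaling by library totals moves every gene up by 0.37, and then 2133 genes rose (15.8%) and 1290 fell (9.55%). Of the 173 named genes that fell under TMM, 62 did not pass the 2-fold test under library totals, each with a fall of 1.53 or less under TMM. The counts cannot show which scaling is nearer to the amount per cell, and in bulk RNA fewer cells of a type and less RNA per cell cannot be told apart.

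**Figure D1:**
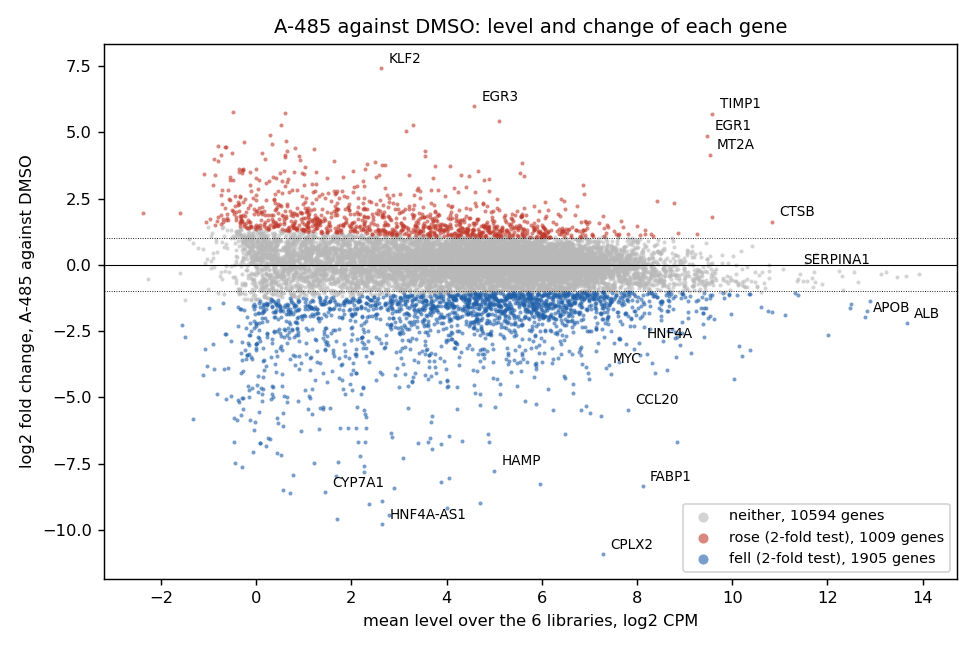
Each point is 1 of the 13508 genes, with its mean level over the 6 libraries (log2 CPM) on the horizontal axis and its log2 fold change of A-485 over DMSO on the vertical axis. Red points are the 1009 genes that rose and blue points the 1905 that fell, and the dotted lines mark a 2-fold change. Falls reach down to CPLX2 at -10.92 and rises up to KLF2 at 7.41. CPLX2 had 27 reads over the 3 A-485 libraries, and KLF2 had 9 over the 3 DMSO libraries.

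The labelled cell type was checked against marker genes. All 12 hepatocyte markers were in the table and 10 fell, and their summed level was 47866 to 48580 CPM in DMSO and 17459 to 17588 CPM with A-485. The 5 hepatoma markers in the table summed to 14655 to 14794 CPM in DMSO and to 5374 to 5438 CPM with A-485. The 5 of 7 cholangiocyte markers in the table summed to 2084 to 2101 CPM in DMSO and to 589 to 612 CPM with A-485, and SOX9, SPP1 and SCTR among them fell. Of 7 neuronal markers 2 were in the table, with a sum of 307 to 314 CPM in DMSO and 5.87 to 6.77 CPM with A-485, as CPLX2 fell and TUBB3 rose. Of 8 endothelial markers 3 were in the table and 2 rose, summing to 8.01 to 8.34 CPM in DMSO and 17.9 to 18.6 CPM with A-485. The 2 of 7 stromal markers in the table both fell, from 28.9 to 31.2 CPM down to 9.26 to 10.2 CPM. The 3 leukocyte markers in the table, mostly LYZ, summed to 1296 to 1310 CPM and then 670.1 to 677 CPM, and none rose or fell. None of 5 erythroid markers was in the table. The part of other cell types in the results was not tested. Reads outside annotated genes made up 3.60% to 3.62% of mapped reads in DMSO and 3.98% to 4.10% with A-485, and unmapped reads 1.86% to 8.93% and 2.46% to 2.49%. The part of these shares in the results was not tested either.

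Several of the deepest falls left almost no reads in the A-485 libraries. HNF4A-AS1 is a long non-coding RNA at chr20:44372746-44395706, within the span of the gene of the hepatocyte factor HNF4A, which fell by 2.95. HNF4A-AS1 had 1605 reads over the 3 DMSO libraries and 2 over the 3 A-485 libraries, a ratio of 1073 (exact 95% interval for counting error only, 296 to 8865). CYP7A1, the rate-limiting enzyme of bile acid synthesis, had 698 reads against 2, a ratio of 467 (interval 129 to 3859.8). In both cases each DMSO library held at least 219 reads and no A-485 library held more than 1. LINC02119, a long non-coding RNA, had 1335 against 3 reads, and the ratio was 595 (interval 203 to 2888). ACSM2A, a mitochondrial acyl-CoA synthetase, had 1786 against 3 reads and a ratio of 796 (interval 272 to 3863), although its near-identical neighbour ACSM2B makes the split of reads between the pair uncertain. UNC93A, at chr6:167271169-167316019, stood at 126, 122 and 122.6 CPM in DMSO and at 0.348, 0.447 and 0.409 CPM with A-485. HAMP encodes hepcidin, the hormone that limits iron release from cells, and its reads went from 8212 to 50, a ratio of 220 (interval 166 to 296). SERPINA3, the inhibitor antichymotrypsin, had 1916 against 7 reads, a ratio of 366 (interval 177 to 911). Of its exons 31.8% were shared with another annotated gene. The deepest falls thus included both protein-coding and non-coding genes, and all of them were also called lower in Dox-treated cells.

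The 10 largest rises were those of KLF2, EGR3, TIMP1, AQP3, EGR2, VASH1, EGR1, GPR137B, MT2A and TPBG. EGR2, a factor of the early growth response family, had 63 reads in DMSO and 3274 with A-485, a ratio of 38.9 (interval 30.3 to 50.7). EGR3 of the same family went from 96 to 8089 reads, a ratio of 63.0 (interval 51.6 to 77.9). VASH1 encodes vasohibin, an enzyme that removes the last tyrosine of tubulin, and its reads went from 67 to 2947, a ratio of 32.9 (interval 25.8 to 42.6). GPR137B, a lysosomal membrane protein, rose from 1.03, 1.02 and 1.38 CPM to 21.6, 22.9 and 22.6 CPM. The trophoblast glycoprotein gene TPBG rose by a similar log2 fold change of 4.12 ± 0.078. TIMP1, the secreted inhibitor of matrix metalloproteinases at chrX:47582313-47586789, stood at 27.8, 29.4 and 29.7 CPM in the DMSO libraries and at 1495, 1498 and 1521 CPM in the A-485 libraries. The lowest A-485 library of TIMP1 was thus far above the highest DMSO library, and its log2 fold change was 5.70 ± 0.023 (adjusted p 4.70e-51). Its relative TIMP3 went the other way, from 652, 659 and 656 CPM to 91.9, 87.8 and 90.9 CPM, a log2 fold change of -2.86 ± 0.020.

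A RefSeq promoter (GRCh38.p14) was matched to 10276 of 13508 genes, to 759 of the 1009 that rose (75.2%) and to 1372 of the 1905 that fell (72.0%). Since fewer than 80% of either set had one, a check of promoter composition against direction was void, and the sequences are shown as examples. The 5 promoters below show the 250 bases before the RefSeq start of genes from both directions, chosen after their values were seen. Capitals mark the TATA box TATAAA, the CCAAT box CCAAT, the E2F site TTTCCCGC, the AP-1 site TGANTCA and the EGR site GCGNGGGCG, each searched on both strands. ALB lies at chr4:73404037-73404286 (plus strand), FABP1 at chr2:88128063-88128312 (minus strand), MCM7 at chr7:100101398-100101647 (minus strand), MT2A at chr16:56608334-56608583 (plus strand) and KLF2 at chr19:16324576-16324825 (plus strand).
ALB: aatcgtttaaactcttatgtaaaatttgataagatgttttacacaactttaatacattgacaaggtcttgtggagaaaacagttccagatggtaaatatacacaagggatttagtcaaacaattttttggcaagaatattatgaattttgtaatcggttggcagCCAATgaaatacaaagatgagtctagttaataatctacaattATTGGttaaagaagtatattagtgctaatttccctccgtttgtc
FABP1: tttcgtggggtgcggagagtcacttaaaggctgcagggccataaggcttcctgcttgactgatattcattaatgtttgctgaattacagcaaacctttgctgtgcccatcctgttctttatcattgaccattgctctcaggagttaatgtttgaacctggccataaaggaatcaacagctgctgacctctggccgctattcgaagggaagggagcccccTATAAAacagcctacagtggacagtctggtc
MCM7: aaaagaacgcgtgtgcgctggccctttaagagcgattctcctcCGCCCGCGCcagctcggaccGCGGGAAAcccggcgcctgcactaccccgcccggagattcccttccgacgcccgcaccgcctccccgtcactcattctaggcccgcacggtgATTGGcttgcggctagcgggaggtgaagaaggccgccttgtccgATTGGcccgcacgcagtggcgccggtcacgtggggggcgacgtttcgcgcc
MT2A: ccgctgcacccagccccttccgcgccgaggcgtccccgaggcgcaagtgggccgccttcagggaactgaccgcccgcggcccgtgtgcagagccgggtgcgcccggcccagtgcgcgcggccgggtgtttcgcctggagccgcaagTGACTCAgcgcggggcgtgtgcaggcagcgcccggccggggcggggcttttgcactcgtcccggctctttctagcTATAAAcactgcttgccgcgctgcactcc
KLF2: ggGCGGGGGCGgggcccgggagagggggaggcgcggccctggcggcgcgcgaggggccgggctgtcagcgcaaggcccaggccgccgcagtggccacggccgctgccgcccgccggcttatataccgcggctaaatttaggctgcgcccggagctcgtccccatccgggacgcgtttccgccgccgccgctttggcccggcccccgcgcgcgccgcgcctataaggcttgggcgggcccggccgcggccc
The liver promoters hold 3 (ALB) and 4 (FABP1) CpG dinucleotides in these 250 bases. MCM7, a replication gene that fell, holds 34, and the genes that rose hold 32 (MT2A) and 41 (KLF2). The CCAAT box begins 86 and 44 bases before the start of ALB and 95 and 51 bases before that of MCM7, and the TATA box begins 31 bases before the start of FABP1 and 29 bases before that of MT2A. Of the 10276 promoters of 300 bases 36.8% hold CCAAT and 5.35% hold TATAAA. The E2F site of MCM7 begins 187 bases before its start and is found in 2.61% of promoters, the AP-1 site of MT2A begins at 104 bases and is found in 4.33%, and the EGR site begins at 248 bases in KLF2 and 207 bases in MCM7 and is found in 15.4%. A match describes the letters only and shows no binding.

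**Figure D2:**
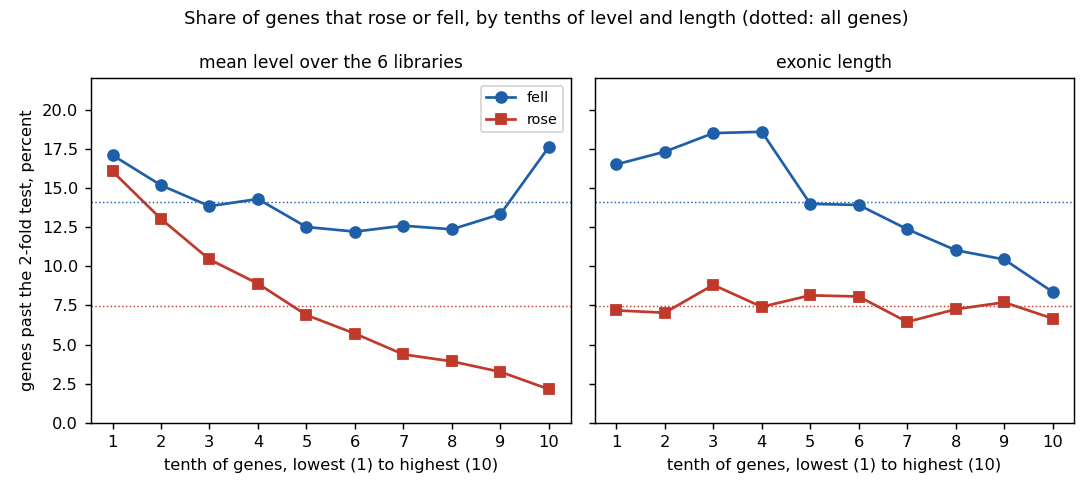
Percent of genes that fell (blue circles) and rose (red squares) in deciles of the 13508 genes ordered by mean level over the 6 libraries and by exonic length, with dotted lines at 14.1% and 7.47% for all genes. The share that rose runs from 16.1% in the lowest level decile to 2.15% in the highest.

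The share of genes that rose or fell varied with level and length. In the decile of genes with the lowest mean level 16.1% rose, and in that with the highest 2.15% rose. The share that fell was 17.1% in the lowest decile of mean level, 12.2% in decile 6 and 17.6% in the highest. Among the 50 genes with most counts in DMSO, 19 fell and none rose. Together they held 23.7% of counts in DMSO and 16.9% with A-485. Ranking by DMSO alone favours genes that are lower with A-485, so this count does not measure how change varied with level. Of the longest decile by exonic length 8.36% fell, and of the 4 shortest deciles 16.5% to 18.6% fell.

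The targets of the compound and the other acetyltransferases did not fall. CREBBP was at 97.8, 99.9 and 101 CPM in DMSO and at 155, 153 and 151 CPM with A-485, and EP300 went from 132, 134 and 134 CPM to 222, 218 and 208 CPM. Both were called higher, at log2 fold changes of 0.62 and 0.70, without passing the 2-fold test. Of 14 acetyltransferase genes 3 rose and none fell, with a median of 0.40, and 5 rose under library totals. The plain test called 10 of the 14 higher and 4 lower, and the lowest log2 fold change was -0.64. KAT2B, the acetyltransferase PCAF, rose from 3.75, 4.50 and 3.62 CPM to 13.3, 13.4 and 13.2 CPM (log2 1.75 ± 0.069). NCOA1, a steroid receptor coactivator, and KAT6B rose by 1.33 and 1.18. Among 16 deacetylases only HDAC7 rose (1.27 ± 0.043) and none fell (2 rose under library totals). Of 22 readers of acetyl-lysine, which bind acetylated histones through bromodomains or related folds, ATAD2 fell from 263, 266 and 264 CPM to 69.8, 70.9 and 67.8 CPM and TRIM24 fell by 1.21, and none rose, against 1 fall and 2 rises under library totals. The bromodomain gene BRD2 did not pass the 2-fold test, at 0.64. HEXIM1, which holds the elongation factor P-TEFb inactive, rose from 67.7, 67.4 and 66 CPM to 163, 168 and 165 CPM and was the only one of 22 elongation and Mediator kinase genes to do so. That count is 3 under library totals and 2 without A-485 replicate 3 or DMSO replicate 2. None of 29 Mediator subunits (MED genes) and none of 14 subunits of RNA polymerase II (POLR2 genes) rose or fell.

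A number of transcription factors that specify hepatocytes fell. Of 23 hepatocyte factors 14 fell and 1 rose, with a median log2 fold change of -1.27 against 0.03 over all genes, and under library totals 8 fell and 2 rose. PROX1, a homeodomain factor of the liver bud, was at 158, 166 and 163 CPM in DMSO and at 58.6, 54.9 and 55.4 CPM with A-485. XBP1, the factor of the secretory pathway, went from 302, 300.3 and 302 CPM to 117, 119 and 119 CPM, a log2 fold change of -1.35 ± 0.019. TBX3 fell by 1.07, and FOXA2, at -1.02, passed the 2-fold test only without A-485 replicate 3. The pioneer factor FOXA1 stood at 104, 102 and 106 CPM in DMSO and 111, 112 and 110.2 CPM with A-485, so its groups were close to each other. CEBPD, a C/EBP family member of the acute phase response, was the hepatocyte factor that rose, from 82.6, 84.4 and 84.7 CPM to 175, 187 and 189 CPM. The 3 C/EBP genes named here thus differed in sign, since CEBPA fell by 3.79 (with 43.4% of its exons shared with another gene) and its neighbour CEBPG by 1.23. Under library totals CEBPG was at -0.86, short of a 2-fold change.

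Of 24 nuclear receptor genes 8 fell, 1 rose and the median was -0.27, and under library totals 4 fell and 2 rose. NR0B2 encodes SHP, the repressor that bile acids induce, and went from 139, 134 and 139 CPM to 10.3, 10.9 and 10.4 CPM (log2 -3.71 ± 0.033, adjusted p 5.42e-39). RXRA, the partner with which many of these receptors pair, fell from 156, 159 and 155 CPM to 40.6, 41.7 and 42.1 CPM. PPARD, a lipid-sensing receptor, was the receptor that rose, from 34.2, 34.4 and 32.4 CPM to 84, 85.5 and 86.2 CPM. The related PPARG fell by 1.09 and ESRRA, a receptor that promotes mitochondrial genes, by 1.41.

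**Figure D3:**
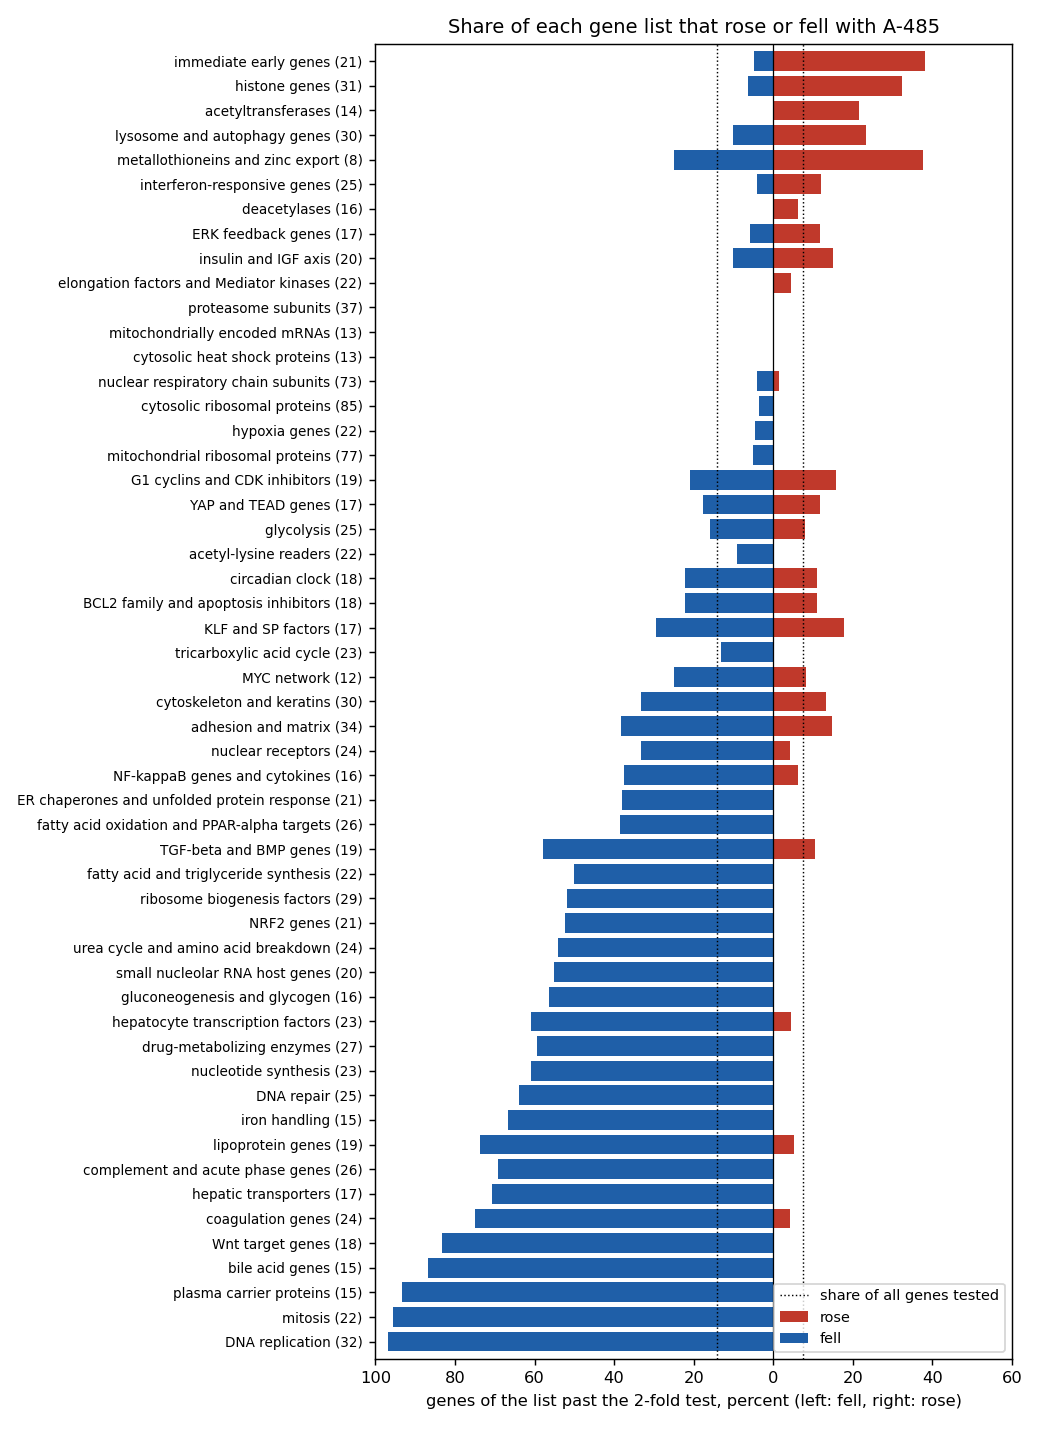
Bars give the percent of the tested genes of each of 53 gene lists (number of tested genes in brackets) that fell (blue, to the left) or rose (red, to the right), with dotted lines at 14.1% and 7.47% for all genes tested. In 40 lists more genes fell than rose, and in 10 more rose than fell, against 29 and 16 under library totals.

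The genes of proteins that the liver sends into plasma fell broadly, but not all of them. The 84 genes of the 4 lists of secreted liver proteins held 9.37% to 9.42% of the counts of each DMSO library and 4.19% to 4.21% with A-485. Of 15 plasma carriers 14 fell (median -2.21), of 19 lipoprotein genes 14 fell and 1 rose (3 under library totals; median -1.77), of 24 coagulation genes 18 fell (median -1.92) and of 26 complement and acute phase genes 18 fell (median -1.55). TTR, the carrier of thyroid hormone and retinol-binding protein, was at 109, 105 and 111 CPM in DMSO and at 5.72, 5.58 and 5.96 CPM with A-485. Every A-485 library of TTR was under 6 CPM and every DMSO library above 100, a log2 fold change of -4.24 ± 0.039 (adjusted p 5.16e-39). APOB, the structural protein of very low density lipoprotein, fell from 11203, 11507 and 11203 CPM to 3058, 2894 and 2727 CPM. APOA1, the main protein of high density lipoprotein, fell by 3.05 and APOA2 by 2.59. The haemoglobin scavenger HP went from 196, 191 and 198 CPM to 6.91, 6.53 and 7.05 CPM, a log2 fold change of -4.84 ± 0.033.

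Some secreted genes rose or did not pass the 2-fold test. SERPINA1, which encodes the elastase inhibitor alpha-1-antitrypsin and lies at chr14:94376747-94390693, was at 10469, 10372 and 10397 CPM in DMSO and at 8673, 8736 and 8779 CPM with A-485, a log2 fold change of -0.25 ± 0.013 that turns to 0.11 under library totals. The 8 other SERPINA genes tested all fell, by 2.56 (SERPINA10) to 8.43 (SERPINA3) on the log2 scale. SERPINA1 therefore stood apart in size from the other SERPINA genes tested. Among those, SERPINA11, SERPINA12, SERPINA4, SERPINA5 and SERPINA3 lie near it on chromosome 14. PROS1, protein S, an anticoagulant cofactor, rose from 116, 114 and 117 CPM to 262, 261 and 258 CPM while fibrinogen genes FGA, FGB and FGG fell by 3.44, 2.73 and 1.85. PON3, a lipoprotein-bound lactonase, rose by 1.08 with an adjusted p of 0.0491, a call lost without any of DMSO replicates 2 and 3 or A-485 replicates 1, 2 and 3. F2 (prothrombin) and APOE were called lower, at -0.91 and -0.58, and did not pass the 2-fold test.

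**Figure D4:**
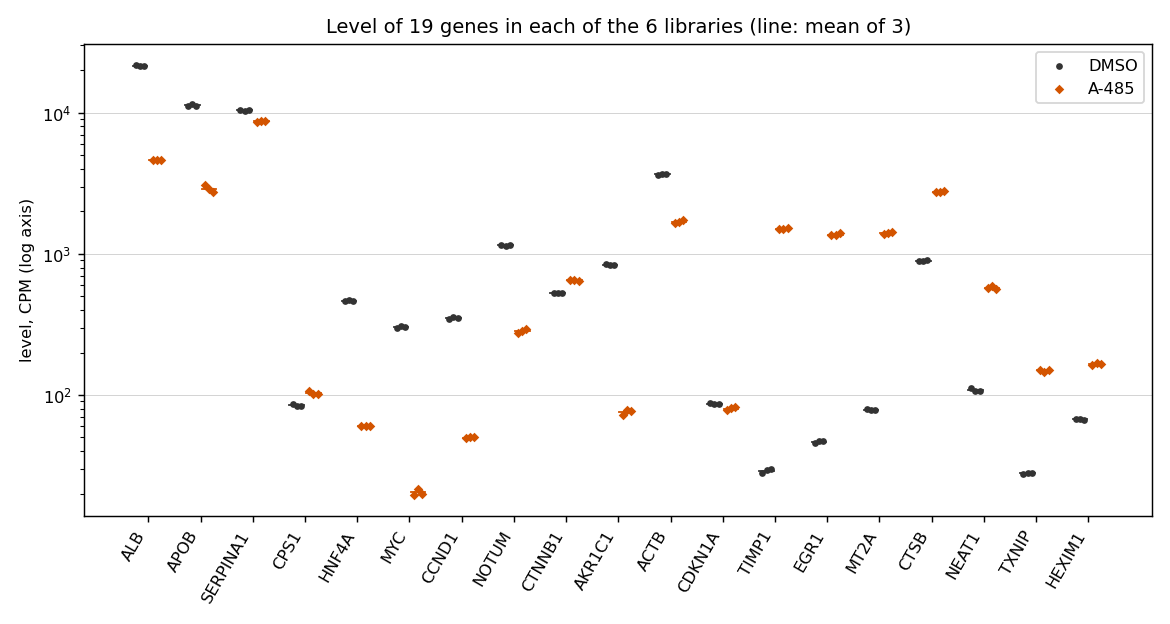
Level (CPM, log axis) of 19 genes in each DMSO library (black circles) and each A-485 library (orange diamonds), with a line at the mean of 3. The lowest DMSO library of ALB is at 21294 CPM and its highest A-485 library at 4644 CPM, TIMP1 goes from at most 29.7 to at least 1495 CPM, and the groups of SERPINA1, CPS1, CTNNB1 and CDKN1A lie close together.

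Bile acid genes were among those with the highest share of falls in metabolism. Of 15 tested 13 fell and none rose, with a median of -2.75. FGFR4, the hepatocyte receptor for the intestinal hormone FGF19, stood at 596, 588 and 595 CPM in DMSO and at 43.9, 46.4 and 47.2 CPM with A-485 (log2 -3.69 ± 0.022), and its coreceptor KLB fell from 121, 122 and 119 CPM to 30.4, 29.5 and 30.8 CPM. CYP27A1, which starts the alternative route of bile acid synthesis, fell from 306, 301 and 309 CPM to 79.8, 80.1 and 81.1 CPM. The phospholipid exporter ABCB4 was at -0.77 and did not pass the 2-fold test. Of 17 hepatic transporters 12 fell (median -1.87), among them the citrate carrier SLC13A5, which went from 237, 238 and 234 CPM to 14.5, 13.8 and 13.8 CPM. The drug efflux pump ABCB1 was called higher, at 0.22.

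Genes of fatty acid breakdown and of synthesis were among those that fell. Of 26 genes of fatty acid oxidation and targets of PPAR-alpha, 10 fell (median -0.88), and of 22 genes of fatty acid and triglyceride synthesis 11 fell (median -1.05). None of either list rose (1 of each under library totals). ETFB, the electron carrier from acyl-CoA dehydrogenases, was at 248, 239.6 and 238 CPM in DMSO and at 11.9, 12.6 and 12.3 CPM with A-485, a log2 fold change of -4.30 ± 0.029. CPT1A, which moves fatty acids to the mitochondrion, fell from 144, 147 and 146 CPM to 50.7, 51.3 and 49.4 CPM. FASN, fatty acid synthase, went from 1099, 1112 and 1098 CPM to 234, 233 and 232 CPM. SCD, the stearoyl-CoA desaturase, fell by 1.74 and the desaturase FADS1 by 2.09, while ACLY, which makes cytosolic acetyl-CoA, was at -0.53 and did not pass the 2-fold test.

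Genes of glucose metabolism moved both ways. PCK1, the cytosolic enzyme that commits carbon to gluconeogenesis, fell from 59, 59.3 and 57.9 CPM to 4.57, 4.60 and 4.75 CPM, and 9 of 16 gluconeogenesis and glycogen genes fell (5 under library totals, where 1 rose). PKLR, the liver pyruvate kinase, went from 26.8, 25.6 and 25.4 CPM to 1.51, 1.39 and 1.73 CPM, and the glucose carrier SLC2A3 fell by 2.09. HK1, the hexokinase of most other tissues, rose from 5.11, 5.67 and 5.42 CPM to 50, 49.3 and 50.4 CPM, a log2 fold change of 3.21 ± 0.046 (adjusted p 1.11e-31). The liver isoform of pyruvate kinase and a ubiquitous hexokinase thus moved in opposite directions, and each group of 3 libraries stayed apart from the other. Over the 25 glycolysis genes 4 fell and 2 rose (median -0.28, and 0.09 under library totals). Both shares were near those of all genes, of which 14.1% fell and 7.47% rose. ENO1 at -0.96 did not pass the 2-fold test. The glycogen branching enzyme GBE1 was called higher, at 0.93.

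Many enzymes of amino acid and drug metabolism fell. Of 24 genes of the urea cycle and amino acid breakdown 13 fell (median -1.55). HPD and HGD, enzymes of tyrosine breakdown, fell by 1.86 and 2.46. CPS1, the first enzyme of the urea cycle, was instead at 85.7, 83.7 and 84 CPM in DMSO and 106, 102 and 102 CPM with A-485, called higher at 0.30 ± 0.024. Of 27 drug-metabolizing enzymes 16 fell and none rose (1 under library totals or without DMSO replicate 2), with a median of -1.94. UGT2B10, a glucuronosyltransferase, fell from 224, 222 and 223 CPM to 5.48, 4.74 and 4.91 CPM, and POR, the electron donor of microsomal cytochromes P450, fell by 1.69. UGT2B genes are near-identical copies, so the split of reads among them is uncertain.

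Iron genes mostly fell and metallothioneins went in both directions. Of 15 iron genes 10 fell (5 under library totals). TFRC, the transferrin receptor, went from 675, 679 and 671 CPM to 320.02, 313 and 303 CPM, and FTH1, the ferritin heavy chain, was at -1.05, with 62.4% of its exons shared with another gene. The FTH1 call (adjusted p 0.0249) is lost without A-485 replicate 1 or DMSO replicate 3. MT2A, a metallothionein that binds zinc and copper at chr16:56608199-56609497, was at 79.2, 77.9 and 78.5 CPM in DMSO and at 1374, 1403 and 1426 CPM with A-485, a log2 fold change of 4.16 ± 0.020 (adjusted p 4.49e-48). MT1E rose from 21, 20.3 and 20.8 CPM to 71.5, 72.8 and 78.4 CPM and MT1X by 1.57. MT1G, a copy in the same cluster, fell from 11.6, 12 and 11.5 CPM to 2.28, 2.58 and 2.69 CPM, and MT1F was at 0.08. The metallothionein genes are close copies, so their individual values carry that uncertainty. The zinc exporter SLC30A1 was at -0.09 and turns to 0.28 under library totals.

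Genes of DNA replication and cell division fell as well. Of 32 DNA replication genes 31 fell and none rose (median -2.35), with the clamp loader subunit RFC1 alone outside the 2-fold test at -0.67. MCM7, a subunit of the replicative helicase, stood at 345, 346 and 347 CPM in DMSO and at 48.9, 48.5 and 50.1 CPM with A-485. E2F1, the factor that drives S phase genes, fell from 94.5, 95.1 and 96 CPM to 7.01, 7.66 and 8.03 CPM (log2 -3.65 ± 0.038). Of 22 mitosis genes 21 fell (median -1.66), MKI67 from 356, 368 and 353 CPM to 98.5, 93.9 and 87.6 CPM and the kinase PLK1 by 1.40. Of 25 DNA repair genes 16 fell, with BRCA1 at -2.23 and the uracil glycosylase UNG at -1.78.

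The cyclins of G1 went in opposite directions. CCND1, cyclin D1, was at 345, 357 and 349 CPM in DMSO and at 49.3, 50.3 and 50.1 CPM with A-485, a log2 fold change of -2.81 ± 0.022. CCND3, cyclin D3, rose from 7.18, 7.47 and 7.68 CPM to 30.6, 31.1 and 30.8 CPM, a log2 fold change of 2.05 ± 0.047. CCNE1 fell by 1.53, and the inhibitor gene CDKN2A rose by 1.48. Of the 19 genes of this list 3 rose and 4 fell (2 under library totals). CDKN1A, the CDK inhibitor p21, was close between groups, at 87.6, 86.7 and 85.7 CPM and 78.7, 80.3 and 81.6 CPM, with a log2 fold change of -0.11 ± 0.024 that turns to 0.25 under library totals.

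Genes for making ribosomes and nucleotides also fell, less deeply. Of 29 ribosome biogenesis factors 15 fell (median -1.07; 6 under library totals), and of 23 nucleotide synthesis genes 14 fell (median -1.16; 7 under library totals). NPM1, a nucleolar chaperone, went from 1289.98, 1283 and 1292 CPM to 537, 539 and 529 CPM. RRM2, the regulated subunit of ribonucleotide reductase, fell by 1.42 and PAICS, of purine synthesis, by 1.16. Of 20 host genes of small nucleolar RNAs 11 fell (5 under library totals), GAS5 by 1.13 and DANCR by 1.52. In the MYC network, the MYC antagonist MXD1 rose by 1.89 ± 0.034 while MXD3 fell by 1.62 and MLXIPL, the carbohydrate response factor ChREBP, by 2.88.

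Genes of apoptosis moved both ways. AEN, a nuclease that promotes apoptosis, fell by 3.04. MDM2, a ubiquitin ligase, was at -0.25, and turns to 0.11 under library totals. MCL1, a short-lived survival protein, rose from 282, 277 and 279.5 CPM to 652, 641 and 645 CPM, and BCL2L1, another survival gene, with 43.0% of its exons shared with another gene, was at -1.04 (adjusted p 0.0255), a call kept only without A-485 replicate 3 or DMSO replicate 2 among the leave-outs of 1 library. Of 18 genes of the BCL2 family and inhibitors of apoptosis 2 rose and 4 fell. These became 4 and 1 under library totals, the rises 1 without A-485 replicate 3 or DMSO replicate 3, and the falls 2 without A-485 replicate 1 or DMSO replicate 3.

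Among immediate early genes more rose than fell. These genes respond to growth signals within minutes without new protein synthesis. Of 21 tested 8 rose and 1 fell, against 7.47% and 14.1% of all genes. EGR1, at chr5:138465490-138469315, stood at 46, 47.5 and 46.9 CPM in DMSO and at 1354, 1364 and 1397 CPM with A-485, a log2 fold change of 4.87 ± 0.022 (adjusted p 8.56e-50). All 4 EGR genes rose, by 4.38 (EGR4) to 5.97 (EGR3). JUNB, an AP-1 subunit, rose from 25.6, 25.2 and 26 CPM to 201, 207 and 216 CPM and FOS from 29.9, 30 and 28.3 CPM to 104, 106 and 108 CPM. JUN, the commonest partner of FOS, overlapped between the groups, at 149, 144 and 149 CPM and 143, 145 and 146 CPM, and its log2 fold change of -0.03 turns to 0.34 under library totals. ATF3, a stress factor of the same class, was the member that fell, from 14.1, 13.5 and 13.6 CPM to 3.65, 4.05 and 4.02 CPM.

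The Krueppel-like factors held the largest rise of all, KLF2, and falls as well. KLF2 had 9 reads over the 3 DMSO libraries and 2119 over the 3 A-485 libraries, a ratio of 176 (interval 92.6 to 386). Of 13 KLF genes 3 rose and 5 fell. KLF9, a glucocorticoid- and thyroid hormone-responsive factor, rose from 10.1, 10.1 and 9.94 CPM to 48.8, 47.3 and 45.9 CPM and KLF12 by 1.53. KLF6, a broadly expressed member, fell from 169, 166 and 169 CPM to 61, 59.7 and 60.7 CPM, and KLF3, KLF4, KLF11 and KLF15 fell by 1.69, 1.80, 1.47 and 1.46. Feedback genes of the ERK pathway were mixed. DUSP5, a nuclear phosphatase of ERK, rose from 3.79, 3.43 and 3.12 CPM to 35.4, 36 and 36.2 CPM and DUSP8 fell by 1.23. Of 17 such genes 2 rose (5 under library totals) and 1 fell (0 under library totals).

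The NF-kappaB and interferon lists each held genes that rose and genes that fell. CCL20, a chemokine that attracts CCR6-bearing lymphocytes, stood at 443, 438 and 444 CPM in DMSO and at 9.74, 10.2 and 10 CPM with A-485, a log2 fold change of -5.46 ± 0.027. TNFAIP3, which encodes the NF-kappaB inhibitor A20, fell from 149, 148 and 148 CPM to 13.2, 12.8 and 12.9 CPM. IL1RN, the interleukin-1 receptor antagonist, fell by 4.86, and 6 of 16 genes of the NF-kappaB and cytokine list fell in all while 1 rose (median -0.42, and -0.05 under library totals). NFKBIA, a direct target of NF-kappaB, was called lower at -0.88. All 4 CCL chemokine genes tested fell, by 1.97 (CCL15) to 5.70 (CCL16). Of 25 interferon-responsive genes 3 rose (10 under library totals, 5 without A-485 replicate 1) and 1 fell (0 under library totals), a share of rises near that of all genes under TMM, with IFITM2, a membrane protein that restricts viral entry, rising from 57.3, 55.7 and 54.1 CPM to 165, 171 and 172 CPM.

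Target genes of the Wnt pathway fell, and the gene of its effector did not. HepG2 cells are known to carry a truncated, stable beta-catenin, so these genes are active without ligand. Of 18 Wnt targets 15 fell and none rose (median -1.86). NOTUM, a secreted Wnt inhibitor, stood at 1160.2, 1145 and 1165 CPM in DMSO and at 277, 283 and 293 CPM with A-485. NKD1, a feedback inhibitor, fell from 690.2, 684 and 687 CPM to 123.3, 116 and 121 CPM, and AXIN2 and the factor SP5 fell by 1.53 and 1.83. CTNNB1, which encodes beta-catenin, was at 529.9, 531 and 531 CPM and 652, 649.7 and 644 CPM, called higher at 0.29 ± 0.016.

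Genes of TGF-beta and BMP signalling fell for the most part. Of 19 tested 11 fell and 2 rose (median -1.23). The BMP targets ID1 and ID2 fell by 1.75 and 1.08, and TGFBI, a matrix protein that TGF-beta induces, by 2.52. TGFB1, the ligand, rose from 135, 136 and 137 CPM to 365, 381 and 391.95 CPM, and BMPR2, a receptor, by 1.27. Of 17 YAP and TEAD genes 2 rose and 3 fell (2 and 1 under library totals). Both shares were near those of all genes, of which 7.47% rose and 14.1% fell. CYR61, a matricellular protein, rose from 32, 31.9 and 33.3 CPM to 202, 205 and 210.2 CPM, ANKRD1 fell by 1.46, and CTGF at -0.51 did not pass the 2-fold test. TXNIP, an inhibitor of thioredoxin and of glucose uptake, rose from 27.7, 28 and 28 CPM to 151, 146 and 151 CPM, and its relative ARRDC4 rose by 2.51. Of 20 genes of the insulin and IGF list 3 rose and 2 fell (4 and 2 under library totals). IGFBP6 rose from 4.20, 4.31 and 3.64 CPM to 45.8, 46.1 and 47.2 CPM. IGF2, a growth factor with 75.0% of its exons shared with another gene, fell by 2.03 and IGFBP2 by 2.02. Of 18 clock genes 2 rose and 4 fell (3 and 3 under library totals). HLF, a PAR bZIP factor, was at -2.41 and PER2 at -1.58, against CRY1 at 1.17. Of 22 hypoxia genes only INSIG2 fell and none rose, against 0 and 1 under library totals.

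Of the stress and housekeeping lists 3 held no gene past the 2-fold test. No gene rose or fell among 37 proteasome subunits, 13 cytosolic heat shock proteins and 13 mitochondrially encoded mRNAs. The medians of these lists were -0.03, 0.02 and -0.35, against 0.34, 0.38 and 0.02 under library totals. Of 85 cytosolic ribosomal proteins 3 fell (5 without A-485 replicate 3, 0 under library totals) and the median was -0.62. Of 73 nuclear respiratory chain subunits 3 fell (0 under library totals) and 1 rose, and of 77 mitochondrial ribosomal proteins 4 fell (1 under library totals). IDH1 and IDH2, isocitrate dehydrogenases that supply NADPH, fell by 1.73 and 1.85. HSPA5, the ER chaperone BiP, went from 1024, 1017 and 1014 CPM to 459, 465 and 463 CPM, and 8 of 21 genes of ER chaperones and the unfolded protein response fell, against 1 under library totals. Of 21 genes of the antioxidant factor NRF2 11 fell (7 under library totals, where 1 rose). AKR1C1, an aldo-keto reductase, fell from 843, 831 and 828 CPM to 72.5, 77.9 and 76.7 CPM and the quinone reductase NQO1 by 1.57, and AKR1C genes are near-identical copies.

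Lysosomal and histone genes leaned upward. Of 30 lysosome and autophagy genes 7 rose and 3 fell (median 0.38). CTSB, the protease cathepsin B, rose from 894, 890.3 and 905 CPM to 2748, 2754 and 2769.6 CPM, and MAP1LC3B, a protein of the autophagosome membrane, by 1.20. Cathepsin H went the other way, with CTSH at 239, 230.2 and 240.1 CPM in DMSO and 43.8, 43.5 and 44.4 CPM with A-485. Of 31 histone genes 10 rose (16 under library totals) and 2 fell (0 under library totals). HIST2H2BE rose from 6.54, 5.45 and 5.31 CPM to 55.2, 54 and 52.7 CPM and HIST1H2AC by 2.20, while H2AFX, the variant histone of DNA damage signalling, was at -1.26. The libraries were made from poly(A) RNA and most replication-dependent histone mRNAs lack a poly(A) tail, so these values concern the tailed fraction.

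Cytoskeletal and matrix genes moved both ways. ACTB, beta-actin, went from 3638, 3684 and 3684 CPM to 1657, 1671 and 1728 CPM, and 10 of 30 genes of the cytoskeleton fell while 4 rose, against 5 and 5 under library totals. TUBB6, a beta-tubulin, rose from 24.5, 26.3 and 25.6 CPM to 139.5, 143 and 147 CPM and TUBA1A by 1.73, whereas TUBB fell by 1.10. Of 34 adhesion and matrix genes 13 fell and 5 rose (8 under library totals). SPP1, osteopontin, fell from 1022, 1021 and 1023 CPM to 98.7, 100.03 and 104 CPM, and FN1, fibronectin, by 1.38. The nuclear non-coding RNAs NEAT1 and MALAT1 rose, NEAT1 from 113, 106 and 107 CPM to 573, 587 and 567 CPM and MALAT1 from 339, 331 and 352 CPM to 1109.5, 1237 and 1229 CPM. Zinc finger genes with a ZNF symbol numbered 390, of which 26 rose and 12 fell with a median of 0.30. The share that rose was near the 7.47% of all genes, and 14.1% of all genes fell. The plain test called 247 of the 390 higher and 92 lower, against 45.6% and 44.2% of all genes.

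Some genes that fell lay in runs. Protein-coding genes in the table were ordered along each chromosome, and runs of at least 4 neighbours that all fell or all rose were listed. Other genes and genes absent from the table were skipped, so neighbours can lie far apart, as in the run at chr12:102120185-103953645. Falls formed 15 runs of 69 genes and rises 2 runs of 14 genes. Of the 11809 protein-coding genes tested 14.1% fell and 7.44% rose. The number of runs that these shares alone would give was not computed. Both upward runs were in the protocadherin clusters of chromosome 5, which encode neuronal cell adhesion proteins. All 9 PCDHB genes rose, by 1.18 (PCDHB2) to 3.20 (PCDHB7). Apart from PCDHB2 their mean levels in DMSO were low, from 0.20 CPM (PCDHB7) to 2.47 CPM (PCDHB13). PCDHB7 had 26 reads over the 3 DMSO libraries and 322 over the 3 A-485 libraries. PCDHB2, at chr5:141094578-141098703, stood at 13, 12.9 and 13.4 CPM in DMSO and at 28.9, 30.4 and 29.8 CPM with A-485. Of 7 PCDHG genes 4 rose, and their constant exons are shared, so that 27.6% to 64.4% of the exons of each belong to another gene too. The downward runs held 5 UGT2 genes with SULT1E1 and ODAM on chromosome 4, 5 SERPINA genes on chromosome 14, 5 ACSM genes on chromosome 16, and 3 CYP4F genes on chromosome 19. In the first of these UGT2B10 was at -5.46. SULT1E1, an estrogen sulfotransferase, was at -5.44, with 208 reads in DMSO and 6 with A-485. A run on chromosome 6 joined UNC93A with TCP10L2 and TCP10. TCP10L2 had 830 reads over the 3 DMSO libraries and 1 over the 3 A-485 libraries, and TCP10 had 382 and 1. Their log2 fold changes of -9.60 and -8.48 thus rest on 1 A-485 read each. The gene families make neighbours alike in sequence as well as in position, and reads with several alignments, which were not counted on genes, made up 2.96% to 3.14% of reads in DMSO and 3.25% to 3.32% with A-485.

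The A-485 effect was also measured in Dox-treated cells, in libraries that share none with the comparison above. Doxycycline is an antibiotic that also blocks translation on mitochondrial ribosomes. The Dox group was used without replicate 1, which stood apart from its 2 partners, so this fit had 11 libraries. In Dox-treated cells 890 genes rose with A-485 (6.59%) and 1766 fell (13.1%), 19.7% in all, and the plain test called 44.2% of genes higher and 43.6% lower. Of the 2914 genes that rose or fell without Dox, 2908 had the same sign with Dox and 2287 passed the 2-fold test in the same direction. Across 13508 genes the log2 fold changes had a Pearson correlation of 0.959 and a Spearman correlation of 0.944, as a description, since genes are not independent replicates.

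The plain test of the difference between the effects called 6536 genes (48.4%), 2939 with a higher effect in Dox (21.8%) and 3597 with a lower one (26.6%). The 2-fold test of the difference called 48 genes (0.355%), 33 with a higher effect in Dox (0.244%) and 15 with a lower one (0.111%). TXNIP had mean levels of 27.9 CPM in DMSO, 149 CPM with A-485, 76.7 CPM with Dox and 53.4 CPM with both, so that A-485 went with a rise only in the absence of Dox. The difference of its log2 effects was -2.96 (adjusted p 1.24e-41). Its relative ARRDC4 gave -1.98. The effect was higher with Dox for the cholesterol synthesis genes HMGCS1, IDI1, MSMO1 and SQLE (1.62, 1.72, 1.77 and 1.28). The mean level of HMGCS1 was 151 CPM in DMSO, 31.1 CPM with A-485, 49.0 CPM with Dox and 31.5 CPM with both, and that of IDI1 was 113 CPM, 36.6 CPM, 33.5 CPM and 36.0 CPM in the same order. MSMO1 and SQLE were also lower with Dox alone (55.4 and 103 CPM) than in DMSO (147 and 264 CPM), a comparison not tested here. The lipid droplet protein PLIN2 went from 1181, 1166 and 1176 CPM in DMSO to 305, 308 and 313 CPM with A-485, a log2 fold change of -1.93, against -0.79 in Dox. Over the 54 lists the largest change of count was in mitosis genes, where 21 of 22 fell without Dox and 10 of 22 with it, and in ER chaperones, where 8 of 21 fell without Dox and 1 with it. The differences between those counts were not tested.

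**Figure D5:**
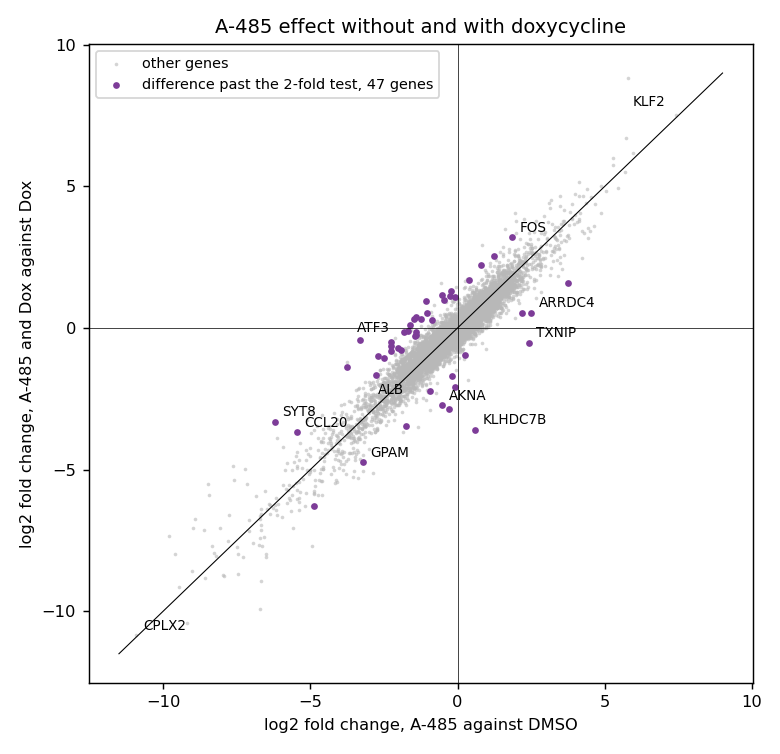
Log2 fold change of A-485 over DMSO (horizontal) against that of A-485 and Dox over Dox (vertical) for 13508 genes, with the line of equal effects. Purple points are the 47 of these genes whose effects differ by the 2-fold test, with TXNIP below the line at 2.42 without Dox and -0.52 with it, and most other genes lie close to the line.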

How the data were processed

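RNA was measured by poly(A) RNA-seq on a BGISEQ-500 in 12 HepG2 libraries. The deposited table holds whole-number counts per gene that the authors made with STAR 2.6.0a and HTSeq 0.10.0 on GRCh38, per the submitters' processing notes. The strand rule of counting was not given in the sources used here, and without it reads from antisense pairs cannot be told apart. The table lists 13511 genes and few with low counts, so lowly expressed genes were not analysed here. The 4 rows that name no gene were kept out of library sizes and tests. They held ambiguous reads (9.29% to 10.0% of reads in DMSO, 9.52% to 9.72% with A-485), reads with several alignments, reads outside genes and unmapped reads. Columns of other samples not used numbered 0.

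Counts were scaled by TMM, 3 genes were removed by filterByExpr, and the 6 libraries were fitted alone with edgeR 4.0.16 (R 4.3.3, limma 3.58.1) by the quasi-likelihood test, and by glmTreat at a log2 change of 1, with Benjamini-Hochberg adjustment over all genes at 0.05. The comparison with Dox used the same test in 11 libraries. Positions, biotypes and exon sharing came from a GENCODE annotation of GRCh38 and promoters from RefSeq (GRCh38.p14), matched by Ensembl identifier, symbol or an older symbol. The scripts were tested on simulated data. Alternatives were library totals, RLE size factors, DESeq2 1.42.0, limma-voom, other filters, other libraries in the fit, the replicate number as a block and each replicate left out. Ratios for genes under 100 counts in a group carry exact intervals at 95%, which cover counting error only.

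Genes named over all genes are the 10 largest rises and 10 largest falls past the 2-fold test with at least 10 CPM in the higher group and no overlap. From each list, up to 4 members of the more frequent direction, up to 2 of the other and 1 that did not pass were taken by mean level, with a set of fixed genes. Other genes, those of gene clusters, the difference test and the printed promoters among them, were chosen after their values were seen. The members and the 54 lists (1286 genes) were chosen with earlier results of these data known. Some genes and 1 list that these rules name are not reported here.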

Additional observations from a re-analysis of the deposited data

Results flagged for a closer look

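In 9 genes among those named, the A-485 effect differed between Dox-treated and other cells by the 2-fold test of the difference in edgeR (effect with Dox minus effect without, log2). The effect was lower with Dox for TXNIP (-2.96), ARRDC4 (-1.98) and IL1RN (-1.43). It was higher with Dox for PLIN2 (1.12), RRM2 (1.17), FOS (1.34), ATF3 (1.65), ANKRD1 (1.75) and CCL20 (1.77). FOS rose in both settings, and IL1RN and CCL20 were called lower in both. In the fit of all 12 libraries, which includes Dox replicate 1, the test called 6 genes with a higher effect and 4 with a lower one, against 33 and 15.

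Reads outside the main measurement also stood above the DMSO level. Reads outside annotated genes made up 4.05% of mapped reads in the A-485 libraries on average, against 3.60% in DMSO and 4.17% with both, and 3.86%, 3.61% and 3.67% in Dox replicates 1, 2 and 3. Reads with several alignments made up 3.28% with A-485, 3.02% in DMSO and 3.06% with both, and 3.76%, 3.003% and 3.06% in Dox replicates 1, 2 and 3, of which replicate 1 stood apart. Their cause was not tested.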

How the results depend on the processing

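Fitting all 12 libraries, which includes Dox replicate 1 and raises the biological coefficient of variation from 1.67% to 20.7%, called 3547 genes higher and 3656 lower, with 654 rises and 1316 falls beyond 2-fold. In Dox-treated cells that fit gave 3657 higher and 589 beyond 2-fold, and for the difference between the effects 169 higher, 179 lower, 6 higher beyond 2-fold and 4 lower beyond 2-fold. Library totals gave 8582 higher and 3866 lower, 2133 and 1290 beyond 2-fold, so that 62.3% of 2-fold calls were higher against 34.6% with TMM. In Dox-treated cells library totals gave 1554 higher beyond 2-fold, and for the difference 1940 higher and 5226 lower.

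Under library totals 11 named genes changed sign: ATP5F1B (0.10), BOK (0.12), CDKN1A (0.25), JUN (0.34), MDM2 (0.11), MT-CO1 (0.016), PSMB5 (0.14), SERPINA1 (0.11), SLC30A1 (0.28), SP3 (0.29) and TNFRSF10B (0.33). Of 108 list counts, 42 moved by over 1.5 times under library totals and 26 in the fit of 12 libraries, and 27 of 298 named genes lost the plain call in that fit. Of 236 named genes past the 2-fold test, 62 did not pass it under library totals, all of them falls: in the text XBP1, TBX3, PPARG, ESRRA, TRIM24, TFRC, FTH1, PLK1, NPM1, PAICS, GAS5, BCL2L1, KLF11, KLF15, DUSP8, ID2, ANKRD1, INSIG2, HSPA5, H2AFX, ACTB, TUBB and FN1. The fit of 12 libraries lost 77, DESeq2 10 (PPARG and PON3 among those in the text), limma-voom 6 and a single library left out 1 to 6. The causes were not tested.

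Leaving out 1 library gave 6013 to 6100 genes higher, 5867 to 5957 lower, 956 to 1004 higher beyond 2-fold and 1880 to 1907 lower beyond 2-fold. For Dox-treated cells the ranges were 5831 to 6111, 5546 to 5919, 851 to 923 and 1685 to 1779, and for the difference 2778 to 3393, 2616 to 3606, 29 to 36 and 12 to 16. RLE size factors gave 969 higher and 1948 lower beyond 2-fold, DESeq2 784 and 1788, limma-voom 910 and 1850, a mean of at least 100 counts 815 and 1610, and 11 libraries 1057 and 1877.

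Deviations from the group mean in same-numbered DMSO and A-485 libraries had correlations of -0.02, 0.01 and 0.02, so no pairing by number was seen. With a biological coefficient of variation of 1.67% there is little spread to share, so this check cannot decide whether the libraries were paired. With the replicate number as a block 6162 genes were higher and 5987 lower, 1009 and 1905 beyond 2-fold, and of the list counts only that of lipoprotein rises moved, from 1 to 0. Depth limits genes with few counts in both groups, and genes absent from the table were not analysed here.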
